A study of Mus musculus with 6 samples.

Results

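The collagen genes encode the chains of the collagens, extracellular matrix proteins in which 3 chains wind into a triple helix. They were taken here as every probe set that the platform annotation gives 1 gene symbol of the form Col, number, a, number, with the probe set of highest mean over the 6 arrays standing for a gene. This gave 44 genes from 46 probe sets, out of 19937 named genes, of which 11 encode fibrillar chains, 8 chains of basement membranes and 25 other collagens. They were read in primary neurospheres that the sample titles call big, floating colonies of neural precursor cells, grown from hippocampal tissue of male C57BL/6J mice 8 to 12 weeks old. All cultures had medium with EGF and bFGF and were collected on day 14, 3 with 10 µM norepinephrine and 3 with 15 mM potassium chloride (KCl), and each sample was run on 1 array. Each difference is norepinephrine minus KCl and shows no distance from untreated cells, which were not analysed here. Separate animals or cultures are not named for the biological replicates, so each p-value reflects only how these samples spread.

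Fibrillar collagens form the tensile fibrils of connective tissue and carry propeptides that are cut off outside the cell. Type IV chains assemble into the sheet-like network of basement membranes, which types XV and XVIII adjoin. In the brain, basement membranes lie mainly around blood vessels and beneath the meninges, and a vascular basement membrane is part of the niche of neural stem cells. Norepinephrine acts through adrenergic receptors, some of which raise cAMP, and KCl depolarises excitable cells and lets calcium in.

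Collagen gene expression did not differ detectably between the treatments. None of the 44 genes passed the test (limma over 21640 named probe sets with Benjamini-Hochberg adjustment), and the lowest adjusted p among them was 0.94. Over all named probe sets 0 were called (0%), and at an unadjusted p under 0.05 there were 0 collagen genes, against 3.43% of the named probe sets. The differences were small, from -0.37 to 0.21 log2 units, with standard errors from 0.17 to 0.30 (n = 3 per group). On the linear scale the widest was 1.29-fold. The 95% confidence interval of every collagen gene lay inside 1 log2 unit, a 2-fold difference, on either side of 0, which held for 85.7% of all named genes. The lowest bound was -0.90 and the highest 0.73. The number of arrays limits this precision, and no background signal came with the values, so no gene was left out as undetected.

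**Figure D1:**
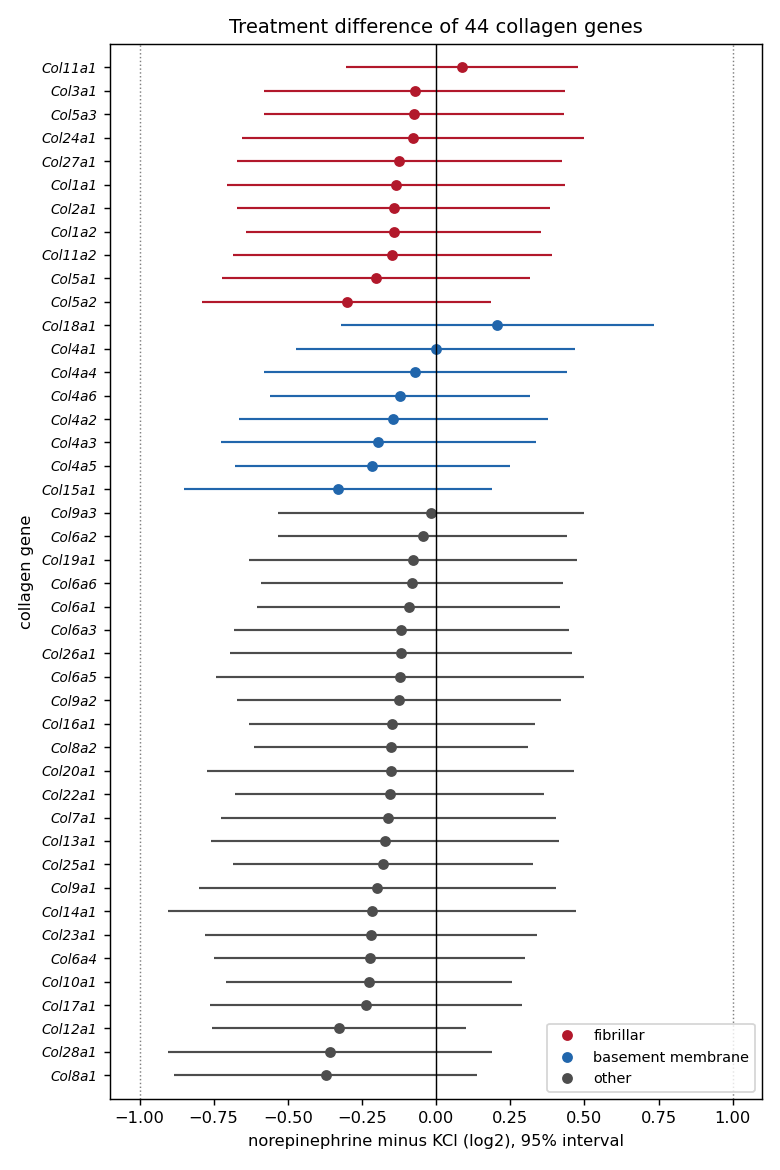
Norepinephrine minus KCl on the log2 scale for 44 collagen genes, with 95% confidence intervals from limma (3 arrays per group), coloured by class and sorted within it; dotted lines mark 1 log2 unit. Every interval crosses 0 and none reaches a dotted line.

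By group means over the 6 arrays, 42 of the 44 genes read higher with KCl, and the median was -0.15. Over all named genes 62.2% read higher with KCl, and the median was -0.07. The lean held in each class, at 10 of 11 fibrillar genes with a median of -0.14, 7 of 8 basement membrane genes with a median of -0.13 and 25 of 25 others with a median of -0.16. The lean turned when 1 array was left out. Without KCl replicate 1, 16 of the 44 genes read higher with KCl, against 47.3% of all named genes. The median was then 0.04, against 0.01 over all named genes. Fibrillar genes then read higher with KCl in 2 of 11, basement membrane genes in 4 of 8 and the others in 10 of 25. Without KCl replicate 2 the median was -0.34, against -0.16 over all named genes. Without norepinephrine replicate 2 it was -0.07, against -0.05. Centring each array on its median gave -0.11, against -0.04 over all named genes. A further quantile normalization gave -0.15, against -0.025. With only probe sets above the median brightness kept, the collagen median was -0.14, against 0.06 over all named genes kept. With array weights from the gene-by-gene method, added after the data were seen, 41 of the 44 genes read higher with KCl. The median was then -0.135, against -0.043 over all named genes, with weights of 0.16, 0.29 and 6.76 for KCl replicates 1 to 3.

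Most collagen genes shared their highest and their lowest array. Their range over the KCl arrays mostly exceeded the treatment difference, as it did for most named genes. Of the 44, 41 were highest on KCl replicate 1 (93.2%), against 51.9% of all named genes. The lowest array was KCl replicate 2 for 31 genes (70.5%, against 32.8%) and norepinephrine replicate 2 for the other 13. The mean of the 44 genes was 7.61 on KCl replicate 1, 6.91 on KCl replicate 2 and 7.33 on KCl replicate 3, and 7.23, 6.99 and 7.19 on norepinephrine replicates 1, 2 and 3. The range over the KCl arrays was 0.73 at the median gene, against 0.67 over all named genes, and it exceeded the treatment difference in 43 of 44 genes (93.6% of all named genes). For 30 genes (68.2%, against 44.1% of all named genes) all norepinephrine arrays lay between the lowest and the highest KCl array. KCl replicate 1 also had the narrowest values over all named probe sets, with an SD of 1.38 where the other arrays had 1.62 to 1.78. The part of that array in the collagen values was not tested beyond leaving it out and weighting the arrays.

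**Figure D2:**
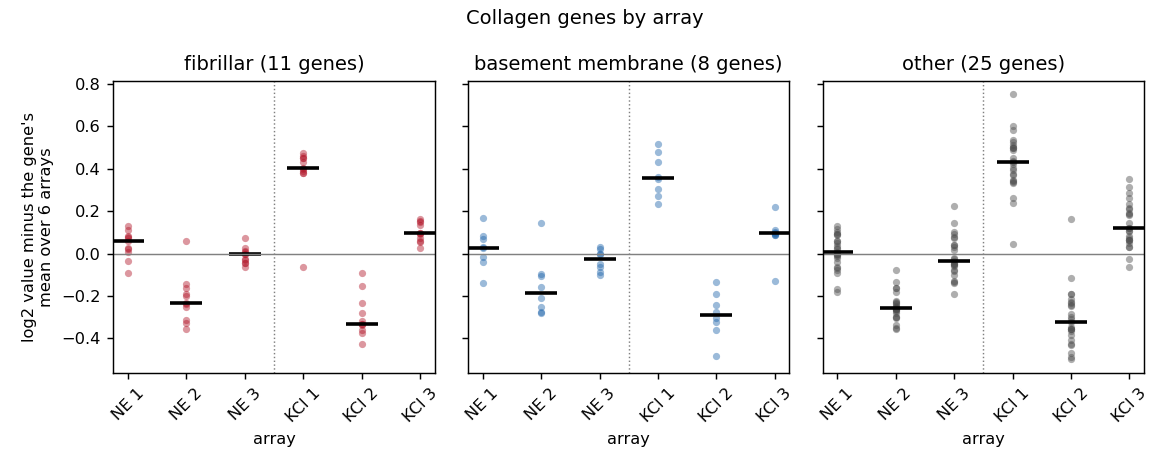
Each dot is 1 collagen gene on 1 array, as its log2 value minus the gene's mean over the 6 arrays, for norepinephrine (NE) and KCl replicates 1 to 3; bars are class medians. In all 3 classes the KCl arrays hold both the highest median, on replicate 1, and the lowest, on replicate 2, with the norepinephrine arrays between.

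Among the fibrillar genes, type I collagen is built from the products of Col1a1 and Col1a2, and type III from Col3a1. Col1a1 read 7.73, 7.29 and 7.63 on norepinephrine replicates 1 to 3 and 8.05, 7.24 and 7.77 on KCl replicates 1 to 3. Col1a2 read 7.34, 7.14 and 7.31 with norepinephrine and 7.73, 7.06 and 7.43 with KCl. Both genes were highest and lowest within the KCl group, so the groups overlapped, and their differences were -0.14 ± 0.25 (SE) and -0.14 ± 0.22. Col3a1 read 6.97, 6.86 and 7.08 against 7.39, 6.67 and 7.07, a difference of -0.07 ± 0.22. Without KCl replicate 1 these 3 genes stood at 0.05, 0.02 and 0.10.

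Type V collagen starts and limits the width of fibrils. Its chain gene Col5a2, the fibrillar gene of smallest p, read 6.57, 6.34 and 6.62 with norepinephrine and 7.11, 6.51 and 6.81 with KCl. The lowest KCl array lay within the norepinephrine values, and the difference was -0.30 ± 0.21 (limma adjusted p = 0.94), or -0.15 without KCl replicate 1. Col5a1 stood at -0.20 ± 0.23 and Col5a3 at -0.08 ± 0.22. Col5a1 read 7.55, 7.12 and 7.45 against 7.88, 7.24 and 7.61. The remaining fibrillar genes on the KCl side, Col2a1, Col11a2, Col24a1 and Col27a1, lay between -0.15 and -0.08.

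Col11a1, a chain of cartilage type XI collagen, was the exception among the fibrillar genes, and was singled out after its values were seen. It read 8.45, 8.44 and 8.38 with norepinephrine and 8.31, 8.28 and 8.40 with KCl. It was highest on norepinephrine replicate 1, and it had the smallest standard error of the 44 genes. The difference of 0.09 ± 0.17 was 0.08 without KCl replicate 1, and -0.01 after a further quantile normalization.

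The type IV genes sit in pairs on opposite strands whose 5′ ends face each other. In the RefSeq table of GRCm38.p6 the bodies of Col4a1 and Col4a2 overlap by 85 bases and those of Col4a3 and Col4a4 by 114 bases, while 1274 bases part Col4a5 from Col4a6. Col4a1 and Col4a2 encode the chains of the most widespread basement membrane network. Col4a1 read 7.08, 6.92 and 7.03 with norepinephrine and 7.25, 6.69 and 7.11 with KCl, and Col4a2 read 7.37, 7.08 and 7.20 against 7.72, 6.99 and 7.38. Both were highest on KCl replicate 1 and lowest on KCl replicate 2. Their differences were -0.0022 ± 0.21 and -0.14 ± 0.23. That of Col4a1 was the nearest to 0 of the 44 genes, and its sign turned under 5 of 15 alternatives. Col4a2 also turned, to 0.04, without KCl replicate 1.

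The other 4 type IV genes are active in fewer tissues, and the products of Col4a3, Col4a4 and Col4a5 form the network of the kidney glomerulus. Col4a3 read 6.92, 6.61 and 6.84 with norepinephrine and 7.37, 6.61 and 6.97 with KCl, a difference of -0.20 ± 0.23. Its neighbour Col4a4 read 7.06, 6.88 and 7.07 against 7.39, 6.68 and 7.15, a difference of -0.07 ± 0.22. The groups of both overlapped, and without KCl replicate 1 they stood at -0.0040 and 0.09.

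On the X chromosome, Col4a5 read 7.45, 7.21 and 7.49 with norepinephrine and 7.85, 7.36 and 7.59 with KCl, a difference of -0.21 ± 0.20. Its partner Col4a6 read 6.71, 6.62 and 6.66 against 7.00, 6.54 and 6.83, a difference of -0.12 ± 0.19. Both stayed below 0 without KCl replicate 1, at -0.09 and -0.02. The partners of each pair were thus within 1 standard error of each other in their differences, and all 6 type IV genes were highest on KCl replicate 1. The letters between Col4a5 and Col4a6 are shown as far as the RefSeq promoter windows reach outside the gene bodies, since this pair has a stretch of DNA that belongs to neither gene. The Col4a5 stretch is chrX:141475169-141475369, plus strand, 201 bases, and that of Col4a6 is chrX:141474096-141474326, minus strand, 231 bases, both 5′ to 3′ on the gene's own strand in GRCm38.p6. Capitals mark matches to the motifs listed with the promoter counts.
Col4a5: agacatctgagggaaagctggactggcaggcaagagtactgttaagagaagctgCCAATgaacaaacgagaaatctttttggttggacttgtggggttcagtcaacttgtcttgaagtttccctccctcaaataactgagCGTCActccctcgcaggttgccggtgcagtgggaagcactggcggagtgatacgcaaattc
Col4a6: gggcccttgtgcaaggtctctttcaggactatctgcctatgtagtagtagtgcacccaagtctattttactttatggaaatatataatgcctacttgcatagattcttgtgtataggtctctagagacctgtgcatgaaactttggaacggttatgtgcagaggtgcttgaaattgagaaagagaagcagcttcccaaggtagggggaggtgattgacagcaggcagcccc
The Col4a5 stretch holds a CCAAT box 147 to 143 bases before the gene and, on the other strand, a half-site of the cAMP response element 61 to 57 bases before it. The printed Col4a6 stretch holds none of the 6 motifs. The 250 bases searched for the promoter counts run past both stretches into the gene bodies, and there each gene has a GC box that does not lie wholly in the letters shown.

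Types XV and XVIII, from Col15a1 and Col18a1, are proteoglycan-like collagens of basement membrane zones, and the end of the type XVIII chain is released as endostatin. Col15a1 read 6.95, 6.83 and 6.98 with norepinephrine and 7.60, 6.84 and 7.31 with KCl. KCl replicate 2 lay among the norepinephrine arrays and the other KCl arrays above them, with a difference of -0.33 ± 0.23. It was -0.15 without KCl replicate 1 and -0.53 without KCl replicate 2. Col18a1, singled out after its values were seen, was the other gene that read higher with norepinephrine. It read 7.48, 7.46 and 7.31 with norepinephrine and 7.62, 6.83 and 7.18 with KCl, so KCl replicate 1 lay above and the other KCl arrays below the norepinephrine arrays. The difference was 0.21 ± 0.23, and it was 0.41 ± 0.18 without KCl replicate 1 (limma adjusted p = 1.00) and 0.02 without KCl replicate 2.

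**Figure D3:**
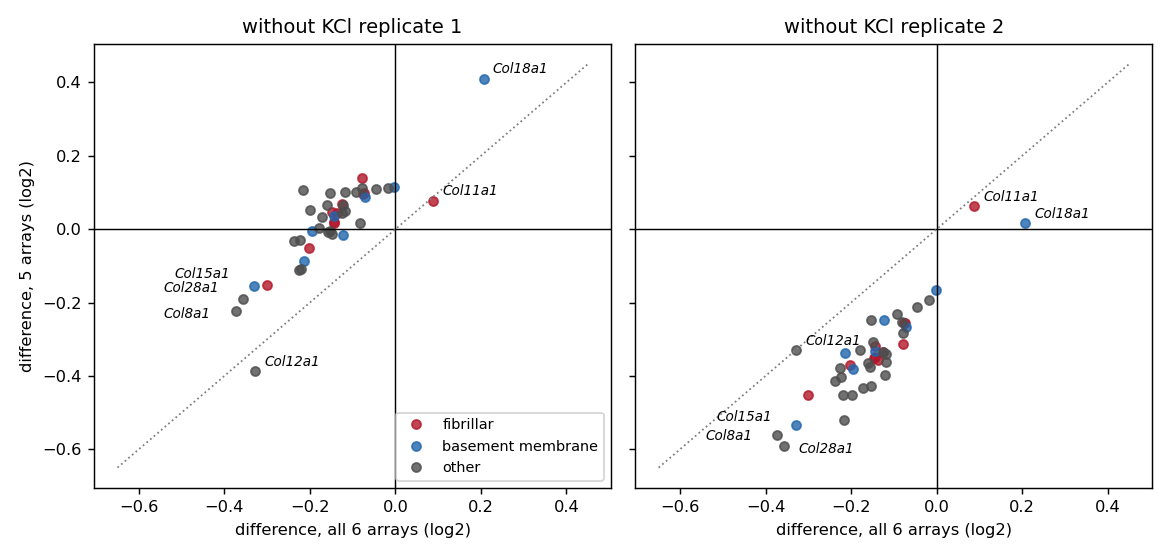
Norepinephrine minus KCl for each of the 44 collagen genes on all 6 arrays (horizontal, log2) against the same difference on 5 arrays (vertical, log2), left without KCl replicate 1 and right without KCl replicate 2; the dotted line marks equal values. Without replicate 1, 28 genes lie above 0, and without replicate 2, 42 lie below it.

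In the class of other collagens, Col12a1 was the 1 collagen gene whose groups did not overlap, where 9.13% of all named probe sets had groups apart. Type XII collagen binds the surface of fibrils and belongs to the collagens with an interrupted triple helix. Col12a1 read 7.08, 6.73 and 6.95 with norepinephrine and 7.13, 7.25 and 7.37 with KCl. Every KCl array was above every norepinephrine array, by 0.05 log2 units at the nearest, and KCl replicate 3 was the highest. Its difference of -0.33 ± 0.19, the smallest p of the 44 genes (limma adjusted p = 0.94), was -0.39 without KCl replicate 1 and -0.33 without KCl replicate 2. With array weights from the gene-by-gene method, which gave KCl replicate 3 a weight of 6.76 and KCl replicate 1 one of 0.16, Col12a1 was the 1 collagen gene called by limma, at -0.40 ± 0.11 (adjusted p = 0.0498). That setting was added after the data were seen and called 1454 of the 21640 named probe sets.

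The short-chain collagens form hexagonal networks, type VIII in vessel walls and the eye and type X in growth plate cartilage. Col8a1 had the largest difference of the 44 genes toward KCl, at -0.37 ± 0.22. It read 6.39, 6.10 and 6.32 with norepinephrine and 6.94, 6.26 and 6.72 with KCl, so only KCl replicate 2 lay among the norepinephrine arrays. The difference was -0.22 without KCl replicate 1 and -0.56 without KCl replicate 2 (limma adjusted p = 0.30). Col10a1 stood at -0.23 ± 0.21 and Col8a2 at -0.15 ± 0.20. Col28a1, next after Col8a1 in size and singled out after its values were seen, encodes a collagen of peripheral glia. It read 6.35, 6.22 and 6.48 with norepinephrine and 7.04, 6.24 and 6.84 with KCl, a difference of -0.36 ± 0.24 that was -0.19 without KCl replicate 1.

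The beaded filament collagen, type VI, anchors cells to the matrix around them. Its 6 genes lay between -0.22 and -0.05, with Col6a1 and Col6a2, neighbours on chromosome 10, at -0.09 ± 0.22 and -0.05 ± 0.21. Col6a4, Col6a5 and Col6a6, neighbours on chromosome 9, stood at -0.22 ± 0.23, -0.12 ± 0.27 and -0.08 ± 0.22. The second probe sets of Col6a5 and Col6a6 stood at -0.04 and -0.21, so both probe sets of each gene read higher with KCl. Without KCl replicate 1 Col6a4 was the 1 type VI gene below 0, at -0.03.

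The collagens with interrupted triple helices that coat other fibrils, with Col12a1 among them, were higher with KCl in 9 of 9 genes, from -0.33 to -0.02, but without KCl replicate 1 in 3 of 9, with a median of 0.05. The type IX genes Col9a1, Col9a2 and Col9a3 stood at -0.20 ± 0.26, -0.13 ± 0.24 and -0.02 ± 0.23. Col14a1 had the widest error of the 44 genes, at -0.22 ± 0.30. The transmembrane collagens Col13a1, Col17a1, Col23a1 and Col25a1, which span the cell membrane, lay between -0.24 and -0.17, with 2 of the 4 below 0 without KCl replicate 1, and Col25a1 encodes the precursor of a peptide found in amyloid plaques. Of these only Col23a1 was highest on KCl replicate 3. Col7a1, the chain of the anchoring fibrils of skin, stood at -0.16 ± 0.25 and Col26a1 at -0.12 ± 0.25.

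Promoter letters were examined because the genes moved together across arrays, also among arrays of the same treatment. Within KCl the mean of all named genes followed the same order of arrays, at 7.29, 7.17 and 7.23 on replicates 1 to 3. The part of the letters in the movement of the collagens was not tested. RefSeq windows of GRCm38.p6 were matched for 35 of the 44 genes, in 38 windows, and the 250 bases before each start were searched on both strands. The full cAMP response element TGACGTCA, which binds CREB, a factor activated by cAMP and by calcium, was in 0 of 38 collagen windows and in 1.55% of 32851 windows of all genes. Its half-site TGACG, which every full element also holds, was in 4 windows, or 10.5%, against 17.8%. The AP-1 site TGANTCA was in 1 window, that of Col6a1, against 6.75% of all. The TATA box TATAAA was in 5 windows, or 13.2%, against 12.4%, and the CCAAT box CCAAT in 13, or 34.2%, against 33.9%. The GC box GGGCGG was in 22 windows, or 57.9%, against 32.7%. A match is a description of the letters and no site of binding.

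The windows before Col1a2, Col3a1 and Col8a1 are shown as examples of genes that were highest on KCl replicate 1 and differ in promoter letters. Col1a2 is chr6:4505368-4505617, plus strand, 250 bases, Col3a1 is chr1:45311288-45311537, plus strand, 250 bases, and Col8a1, the gene of largest difference, is chr16:57754738-57754987, minus strand, 250 bases. All are 5′ to 3′ on the gene's strand and end at the base before the gene, with matches to the 6 motifs in capitals.
Col1a2: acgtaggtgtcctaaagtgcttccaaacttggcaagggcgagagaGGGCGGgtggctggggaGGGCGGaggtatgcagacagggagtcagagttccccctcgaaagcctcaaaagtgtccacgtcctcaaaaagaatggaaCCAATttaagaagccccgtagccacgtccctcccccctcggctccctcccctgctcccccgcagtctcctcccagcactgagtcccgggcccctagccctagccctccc
Col3a1: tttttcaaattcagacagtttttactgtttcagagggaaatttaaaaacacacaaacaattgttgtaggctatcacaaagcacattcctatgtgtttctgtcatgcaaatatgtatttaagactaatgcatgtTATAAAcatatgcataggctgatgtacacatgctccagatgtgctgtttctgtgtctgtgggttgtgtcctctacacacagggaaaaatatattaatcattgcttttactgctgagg
Col8a1: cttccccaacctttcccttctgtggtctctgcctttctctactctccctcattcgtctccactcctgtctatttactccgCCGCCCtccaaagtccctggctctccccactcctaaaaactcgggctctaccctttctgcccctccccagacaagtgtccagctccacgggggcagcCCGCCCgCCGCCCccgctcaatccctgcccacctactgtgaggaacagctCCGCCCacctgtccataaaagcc
Of these bases 62.0% were G or C for Col1a2, 35.2% for Col3a1 and 60.8% for Col8a1. Col1a2 holds a pair of GC boxes and a CCAAT box, Col3a1 a TATA box 117 to 112 bases before the gene, and Col8a1 4 GC boxes on the other strand, the nearest 23 to 18 bases before it.

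Genes that make, export, cut, crosslink or bind collagen were read beside the collagens themselves. Of 51 such genes, 32 read higher with KCl, at a median of -0.07, and 0 passed or had an unadjusted limma p under 0.05. The share was 62.7%, where 62.2% of all named genes read higher with KCl. It was 34 of 51 genes without KCl replicate 1. Of 15 hydroxylation and glycosylation genes, 11 read higher with norepinephrine, with a median of 0.06, but without KCl replicate 1 these were 9 genes and a median of 0.0044. Crtap, a partner of prolyl 3-hydroxylase, read 8.45, 8.34 and 8.38 with norepinephrine and 7.48, 8.22 and 8.35 with KCl. Its KCl replicate 1 was low and the groups overlapped, at 0.38 ± 0.25, or 0.11 without that array. Colgalt2, which adds galactose to hydroxylysine, read 7.26, 7.62 and 7.47 with norepinephrine and 7.59, 7.74 and 7.88 with KCl. Its groups overlapped only through KCl replicate 1, at -0.28 ± 0.19.

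Among 11 genes of chaperones and export 6 read higher with KCl, at a median of -0.01, and without KCl replicate 1 9 did, at a median of -0.10. Fkbp7, a prolyl isomerase of the endoplasmic reticulum, read 8.99, 8.33 and 8.33 with norepinephrine and 6.72, 8.37 and 8.13 with KCl. Its difference of 0.81 ± 0.42 was 0.30 without KCl replicate 1, the low array. Fkbp14, a related enzyme, read 7.32, 7.67 and 7.34 with norepinephrine and 7.62, 8.42 and 7.65 with KCl. KCl replicate 2 was the high array, and the difference of -0.45 ± 0.26 was -0.19 without it. Of 9 genes of propeptide cleavage, 6 read higher with KCl, with a median of -0.15, which became -0.0032 once KCl replicate 1 was left out. Adamts3, a procollagen protease, had the largest difference of the 51, at 1.03 ± 0.56. It read 8.57, 8.74 and 8.93 with norepinephrine and 6.23, 8.83 and 8.10 with KCl, and the difference was 0.28 without KCl replicate 1 and 1.58 without KCl replicate 2. Pcolce, an enhancer of propeptide cleavage, read 7.30, 7.19 and 7.18 against 7.61, 7.41 and 7.58. Its groups did not overlap, and it stood at -0.31 ± 0.18, or -0.27 without KCl replicate 1.

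All 5 crosslinking genes and all 11 collagen receptor genes read higher with KCl, with medians of -0.27 and -0.17. Without KCl replicate 1 the counts were 4 of 5 and 10 of 11, and the medians -0.11 and -0.16, where 47.3% of all named genes read higher with KCl. Loxl4, a relative of lysyl oxidase, read 6.39, 6.43 and 6.44 with norepinephrine and 7.03, 6.33 and 6.80 with KCl. Its difference of -0.30 ± 0.22 was -0.15 without KCl replicate 1 and -0.50 without KCl replicate 2. Loxl1, of the same family, read 6.70, 6.65 and 6.87 against 7.24, 6.76 and 7.02, a difference of -0.27 ± 0.20 that was -0.15 without KCl replicate 1. Only KCl replicate 2 kept the groups of either gene from standing apart. Mrc2, which takes up collagen for degradation, had the smallest p of the 51 (limma adjusted p = 0.94). It read 6.82, 6.82 and 6.86 with norepinephrine and 7.62, 6.89 and 7.39 with KCl, groups that did not overlap, with a difference of -0.47 ± 0.22. It was -0.31 without KCl replicate 1 and -0.67 without KCl replicate 2. The collagen-binding integrin subunit Itga1 read 6.52, 6.86 and 6.52 with norepinephrine and 6.68, 7.33 and 7.09 with KCl. Its groups overlapped, and its difference of -0.40 ± 0.23 was -0.58 without KCl replicate 1 and -0.25 without KCl replicate 2. In all, 4 of the 51 genes had groups that did not overlap, or 7.84%, against 9.13% of all named probe sets. They were Bmp1 and P3h4 beside Pcolce and Mrc2.

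**Figure D4:**
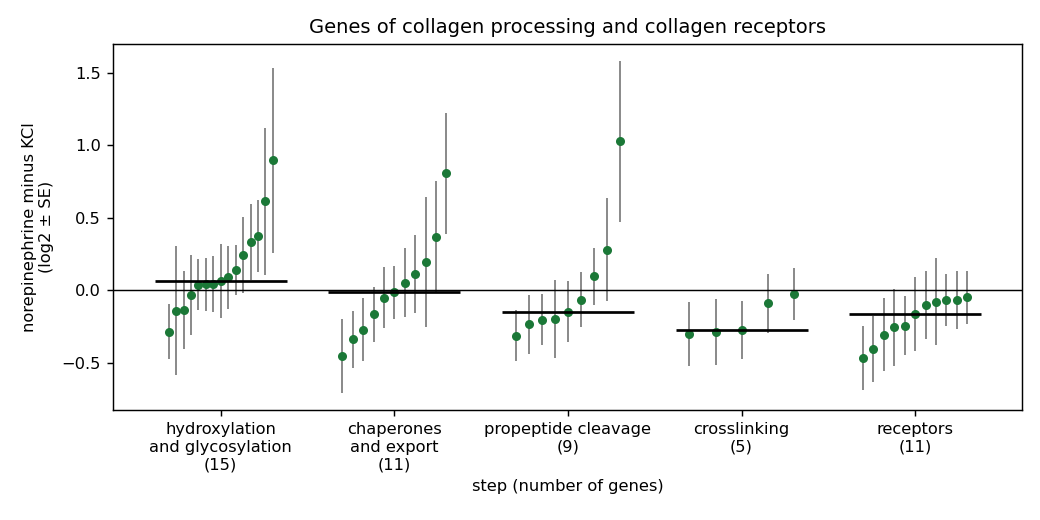
Norepinephrine minus KCl (log2 ± SE, 3 arrays per group) for 51 genes of collagen processing and collagen receptors, each dot 1 gene, sorted within each step; bars are medians. Medians run from -0.27 for crosslinking to 0.06 for hydroxylation and glycosylation, and every gene of crosslinking and the receptors lies below 0 on these 6 arrays.

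The neurosphere label was checked against markers, as were other cells that make collagen. Of 13 measured neural precursor markers, 12 were brighter than the median named probe set, among them Fabp7, Vim, Slc1a3 and Sox2. Of 12 fibroblast markers 2 were, of 12 pericyte and smooth muscle markers 3, of 12 endothelial markers 1, of 8 choroid plexus markers 1 and of 11 microglial markers 2. This ranks signal and not RNA amount. The precursor markers read higher with norepinephrine in 8 of 13, and their mean was 9.63 to 9.71 with norepinephrine and 9.19, 9.43 and 9.44 on KCl replicates 1 to 3. Gfap, Prom1, Vim and Msi1 had groups that did not overlap, all higher with norepinephrine. These were 30.8% of the list, against 9.13% of all named probe sets, and 5 of the 13 markers read higher with KCl. Gfap, an intermediate filament of astrocytes and adult neural stem cells, stood at 1.89 ± 0.30 (limma adjusted p = 0.77). The mean of the fibroblast markers ran from 5.98 to 6.13 with norepinephrine and was 6.50, 5.87 and 6.19 on KCl replicates 1 to 3, and the endothelial mean 6.11 to 6.28 against 6.68, 6.05 and 6.43. The pericyte mean was 6.68 to 6.78 against 7.08, 6.50 and 6.80. These lists thus followed the same array order within KCl as the collagens, but the order was not particular to them. On KCl replicates 1 to 3 the microglial mean was 6.93, 6.11 and 6.39 and the choroid plexus mean 6.86, 6.07 and 6.47. The mean of all named genes was 7.29, 7.17 and 7.23. Of the 12 fibroblast genes 11 read higher with KCl, and 3 without KCl replicate 1, as did 11 and 5 of the 12 endothelial genes and 9 and 3 of the 12 pericyte genes. The counts were 11 and 5 for the 11 microglial genes and 7 and 4 for the 8 choroid plexus genes. Over all named genes the shares were 62.2% and 47.3%. The mean over 6 arrays was 6.26 for Dcn, 4.70 for Lum and 6.20 for Pecam1. The markers above the median probe set were Lamc3 at 7.51 and Fbln1 at 7.32 for fibroblasts, Acta2 at 9.04, Tagln at 7.44 and Notch3 at 7.42 for pericytes and smooth muscle, and Erg at 7.32 for endothelium. The part of such cells, or of the precursor markers, in the collagen values was not tested, and fewer cells of a type and less RNA per cell cannot be told apart in these samples.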

How the data were processed

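Total RNA of neurospheres was converted to cDNA with the Applause WT-Amp ST kit and run on whole-transcript arrays, 1 per sample, per the labels' protocols. The deposited log2 expression values were made by the authors with Partek and RMA, per the submitters' processing notes, with versions and settings not given in the sources used here. RMA commonly combines background correction, quantile normalization and probe summarization. Over the named probe sets the arrays did not share a common distribution, with medians from 7.03 to 7.28 and SDs from 1.38 to 1.78. Whether the deposited values had been quantile normalized together is thus not known. Of 34760 probe sets, 21640 had 1 gene symbol in the platform annotation, 1321 several and 11799 none. No collagen symbol stood among those with several. Treatments were compared with limma 3.58.1 in R 4.3.3 (lmFit, eBayes), two-sided, on the deposited log2 values of the 21640 probe sets, with Benjamini-Hochberg adjustment over all of them and a threshold of 0.05. The script was tested on simulated data. The members and lists were chosen with earlier results of these data known. Values per array are given for collagen genes with an unadjusted p under 0.05 or groups apart, the 2 of smallest p in a class, the type IV genes and Col1a1, Col1a2 and Col3a1, and exceptions are stated. For processing genes it was those under that p and the 2 of smallest p at each step. Alternatives were other normalizations, filters on dim probe sets (30th percentile or median), robust variance with a trend, weights per array, a block on the replicate number, other probe sets and class limits, and leaving out each array. The main fit did not pair the samples by replicate number, as the labels state no pairing. Same-numbered arrays correlated at 0.30, 0.63 and 0.09 in their deviations from the group means. Arrays of different number correlated at -0.47 to 0.31. With 3 arrays per group these values do not decide whether the samples were paired.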

Additional observations from a re-analysis of the deposited data

How the results depend on the processing

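The number of collagen genes called stayed at 0 under each normalization, filter, variance and probe set setting, with each array left out, and with the replicate number as a block (0 called by limma, lowest adjusted p = 0.75, median difference -0.15). That block changed no call, and as the replicate numbers are no stated pairing it is given only here. Collagen genes at an unadjusted p under 0.05 ranged from 0 to 3 and named probe sets called from 0 to 4 when an array was left out. Both settings of array weights moved the counts. The default method stopped before it converged and gave KCl replicate 3 a weight of 673. With it 8 of the 44 collagen genes were called by limma, beside 5670 of the 21640 named probe sets. At an unadjusted p under 0.05 there were 12 collagen genes. The gene-by-gene method, added after the data were seen, called 1 of the 44 collagen genes and 1454 of the 21640 named probe sets. It put 7 collagen genes at an unadjusted p under 0.05. Both methods rest mainly on KCl replicate 3 within the KCl group. Its weight of 6.76 in the latter compares with 0.16 and 0.29 for the other KCl arrays. The share of all named probe sets at that unadjusted p was not counted for either method. The medians kept their sign under all settings except without KCl replicate 1. There they were 0.05 for fibrillar, 0.02 for basement membrane and 0.03 for other collagens, while that of processing and receptor genes was -0.08. Counting types XV and XVIII as other left the medians at -0.13 and -0.16.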
